A study of Mus musculus with 8 samples.

Results

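The guanylate-binding protein family was followed here through its members Gbp2, Gbp3, Gbp4, Gbp5, Gbp6, Gbp7, Gbp8 and Gbp9, which are 8 of the 32285 genes in the deposited matrices. The members were chosen by name and not by any measured value, and all 8 had UMIs (unique molecular identifiers, each standing for 1 captured mRNA molecule) in all 4 libraries. The libraries were single-cell RNA-seq of CD45+CD11b+Ly6Chi cells sorted from tumors of the MC38 colon carcinoma line, or from the blood of the mice that bore these tumors, without irradiation (control) or 3 days after a single dose of 20 Gy to the tumor (IR). In each library, cells of WT mice (Ythdf2 fl/fl without Cre) were mixed with cells of Ythdf2-cKO mice (Lyz2-Cre;Ythdf2 fl/fl), in which Cre is driven from the Lyz2 locus of myeloid cells, and an antibody hashtag told them apart. All mice were on the C57BL/6J background, and both genotypes carry the floxed allele and a tumor. Cells with 20 or more hashtag UMIs were labelled WT where the WT hashtag was at least as frequent as the other, and cKO where the cKO hashtag was at least 4 times the WT one. This gave 8 groups of 2142 to 4619 cells and 27444 cells in all. Each group is 1 pool of several mice in 1 library, so no difference between groups could be tested, and every interval below is a 95% interval for counting error alone.

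Guanylate-binding proteins are large, interferon-inducible GTPases of the dynamin superfamily that assemble on the membranes of intracellular pathogens and of the vacuoles that hold them, and some of them promote inflammasome activation. Their transcription is driven by interferon-gamma and by type I interferon, in part through interferon-stimulated response elements in their promoters. Macrophages and monocytes respond strongly to interferon-gamma, and Cxcl9, a chemokine that attracts CXCR3+ T cells, is a target that depends closely on that ligand. YTHDF2, the protein removed in the cKO mice, binds m6A-modified mRNA and promotes its decay.

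The members lie in 2 blocks of the mouse genome (GRCm38, positions from GENCODE vM21). Gbp5, Gbp7, Gbp3 and Gbp2 follow each other in that order on the + strand of chromosome 3, between positions 142493978 and 142638008. Gbp8, Gbp9, Gbp4 and Gbp6 lie on the - strand of chromosome 5, between 105014150 and 105293698, where the annotated spans of Gbp4, Gbp8 and Gbp9 overlap on the same strand. Most counts of a 3′ library come from the end of a transcript. Of the 50-base stretches in the last 500 transcript bases of Gbp6, 77.8% also occur in another gene (Gbp10, Gbp9 or Gm43302), so the values of Gbp6 are uncertain. The share was 6.43% for Gbp4 (also in Gbp6 or Gm43302), 5.99% for Gbp5 and 0 for the other 5 members.

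Promoter sequences are shown for the 4 genes of the chromosome 3 block. RefSeq promoters (GRCm38.p6) were matched for these 4 members and for none of the other 4. Each of the 4 has a sequence motif of the interferon-stimulated response type within 250 bases before a RefSeq start. Capitals mark matches to TTTCNNTTTC on either strand (GAAANNGAAA on the other), which stands for the interferon-stimulated response type, and to the palindrome TTCNNNGAA, the gamma-activated site type. In Gbp3, 2 matches overlap. The lines end at the transcription start or, where GENCODE begins an exon earlier, at most 20 bases into that exon.
Gbp5, chr3:142496684-142496919, + strand: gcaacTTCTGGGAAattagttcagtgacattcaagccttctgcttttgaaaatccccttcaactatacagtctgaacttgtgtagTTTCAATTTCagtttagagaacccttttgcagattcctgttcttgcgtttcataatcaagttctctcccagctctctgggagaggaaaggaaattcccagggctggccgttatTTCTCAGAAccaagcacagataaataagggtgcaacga
Gbp7, chr3:142530086-142530335, + strand: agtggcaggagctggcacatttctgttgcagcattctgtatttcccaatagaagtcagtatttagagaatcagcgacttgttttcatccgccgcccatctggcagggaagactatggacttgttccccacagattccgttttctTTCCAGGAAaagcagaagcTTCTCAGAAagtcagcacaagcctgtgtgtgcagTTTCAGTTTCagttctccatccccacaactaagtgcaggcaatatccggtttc
Gbp3, chr3:142559794-142560043, + strand: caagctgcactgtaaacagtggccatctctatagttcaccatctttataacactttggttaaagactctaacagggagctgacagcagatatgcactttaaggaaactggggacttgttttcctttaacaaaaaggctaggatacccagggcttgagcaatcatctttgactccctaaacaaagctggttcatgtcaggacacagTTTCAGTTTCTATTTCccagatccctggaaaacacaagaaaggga
Gbp2, chr3:142620413-142620621, + strand: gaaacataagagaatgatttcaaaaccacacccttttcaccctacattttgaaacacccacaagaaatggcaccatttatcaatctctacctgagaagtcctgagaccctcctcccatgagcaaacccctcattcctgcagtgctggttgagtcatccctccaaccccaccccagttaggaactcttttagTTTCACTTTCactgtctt

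The response-element letters were found once in Gbp2, 59 bases before the RefSeq start, once in Gbp7 at 53 bases, once in Gbp5 at 165 bases, and in Gbp3 at 45 and 39 bases. The Gbp2 match lies inside an exon of the GENCODE gene, which begins earlier, at position 142620602. The same letters occur in the 250 bases before the start in 2.98% of 32851 promoters. The gamma-activated letters were found 2 times each in Gbp5 (245 and 52 bases) and Gbp7 (106 and 87 bases) and in neither Gbp3 nor Gbp2, against 7.02% of all promoters. A match shows that these letters are present and no more. Another annotated start of Gbp3 had no match of either kind.

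The depth and the labels of the libraries bear on all values that follow. The matrices held 51653956 to 87703837 gene UMIs, and the median kept cell had 6005 to 8550 UMIs in the tumor groups and 2869 to 3226 in the blood groups. The 2 tumor matrices shared nearly all their barcodes: 4512 of the 4668 kept tumor control cells and 6690 of the 6885 kept tumor IR cells also had at least 500 UMIs in the other matrix, and cells were assigned to a library by their hashtag UMIs. Ythdf2 itself was higher in the cells labelled cKO, at 303 to 374 CPM (UMIs of the gene per 1000000 gene UMIs of the group) against 32.9 to 55.4 CPM in the cells labelled WT. A 3′ tag need not come from the floxed part, so these counts do not check the deletion. The cause of the higher level was not tested. Lyz2, the gene that carries the Cre insertion, had 3 or more UMIs in 61.9% to 75.3% of the cells labelled WT and in 2.31% to 3.50% of those labelled cKO, so the hashtags separate 2 kinds of cells by Lyz2. In what follows, WT and cKO mean cells with that label. Neutrophil-like cells made up 66.5% to 70.8% of the blood groups and monocyte-like cells 16.3% to 22.2%, although the sort was for Ly6Chi cells. Small clusters with markers of NK cells, T cells and B cells were also present. Fibroblast-like cells made up 1.25% to 11.7% of the cells of the tumor groups.

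Tumor cells held several times more of the family than blood cells in every matched pair of groups. The 8 members together reached 783 CPM (95% interval 770.4 to 795) in tumor control WT cells and 523 CPM (514 to 532) in tumor control cKO cells. After IR they stood at 1121 CPM (1107 to 1136) in WT and 1228 CPM (1215 to 1242) in cKO tumor cells. In blood the sums were 159.6 CPM (154 to 165) and 160.3 CPM (155 to 166) in the WT and cKO controls. They were 301.1 CPM (294 to 308) and 245 CPM (238 to 252) in WT and cKO blood after tumor IR. The 4 tumor groups thus lay above the 4 blood groups without overlap, and in each tissue and for each label the IR group lay above its control. The 2 blood control groups, whose intervals overlap, are the only neighbours in this order that counting error alone could exchange.

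Droplets without cells also carried these transcripts. Among barcodes far below the cell range, the summed family stood at 704 CPM in tumor control, 1104 CPM in tumor IR, 153 CPM in blood control and 230 CPM in blood IR, which is close to the level in the cells of the same library. The part of free RNA in the cell values was not tested. The 62 cells of the most immature neutrophil-like cluster, led by the secondary granule genes Ltf, Ngp and Camp, had 6 family UMIs in blood control cKO, which is 12.1 CPM (4.44 to 26.3), at a median of 8049 UMIs per cell. One or more of these UMIs was seen in 8.06% of those cells, against 36.4% of all cells of that group at a median of 3226 UMIs. Cells of the same library thus ran from 12.1 CPM to 304 CPM, the level in NK cell-like cells of that group.

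Shares of positive cells followed the same order once depth was made equal. When each cell was thinned to 1500 UMIs, a family transcript was seen in 48.2% of WT and 39.6% of cKO tumor control cells, and in 60.2% and 62.5% after IR. In blood the shares were 16.6% (WT) and 18.1% (cKO) in controls and 27.5% and 25.1% after IR. Without thinning they were 67.6% to 82.2% in tumor and 33.7% to 48.9% in blood. Thinning left out 45 to 288 cells a group. Transcripts of 3 or more different members were found in 15.5% of WT and 17.6% of cKO tumor cells after IR and in 9.47% and 6.33% before, but in at most 1.09% of the cells of any blood group. In tumor IR the top 10% of cells held 43.0% (WT) and 42.1% (cKO) of the thinned family UMIs, and in blood control 71.1% and 68.6%.

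Gbp2, which can restrict parasites on their vacuole, was the largest member in 7 of the 8 groups. It measured 429 CPM (WT) and 263 CPM (cKO) in tumor control, 535 and 598 CPM in tumor IR, 51.4 and 53.9 CPM in blood control, and 107 and 72.9 CPM in blood IR. It made up 47.7% to 54.8% of the family UMIs in tumor and 29.7% to 35.5% in blood. Each transcript gives 1 tag at its end, so these levels need no division by gene length, but members can still differ in how well they are captured.

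Gbp7 came next, and it took a larger part of the family in blood than in tumor. It was at 95.3 CPM (WT) and 86.4 CPM (cKO) in tumor control, 166 and 179 CPM in tumor IR, 42.9 and 48.2 CPM in blood control, and 82.7 and 83.6 CPM in blood IR. Its share of family UMIs was 12.2% to 16.5% in tumor and 26.9% to 34.1% in blood, and in cKO blood after IR it was slightly above Gbp2, the one group in which Gbp2 did not lead. The Gbp2 interval there was 69.1 to 76.8 CPM.

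Gbp3 and Gbp5 stood close together in tumor and apart in blood. Gbp3 was at 80.1 CPM (WT) and 48.7 CPM (cKO) in tumor control, 115 and 112 CPM in tumor IR, 32.8 and 31.0 CPM in blood control, and 61.1 and 45.9 CPM in blood IR. Gbp5, a member known for its part in NLRP3 inflammasome assembly, was at 68.9, 51.6, 120.4 and 123 CPM in the same 4 tumor groups, but at 9.49, 9.33, 18.6 and 15.9 CPM in the 4 blood groups. In blood Gbp3 thus held 18.7% to 20.5% of the family UMIs and Gbp5 held 5.82% to 6.48%, while in tumor Gbp3 held 9.12% to 10.3% and Gbp5 8.80% to 10.7%.

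The chromosome 5 members were lower, and most of them were rare in blood. Gbp4 was at 53.1 CPM (WT) and 36.4 CPM (cKO) in tumor control, 91.2 and 111 CPM in tumor IR, and 2.76 to 4.49 CPM in blood. Gbp8 measured 16.0 and 8.94 CPM in tumor control, 17.8 and 23.8 CPM in tumor IR, and 1.41 to 3.02 CPM in blood. Gbp6, uncertain for its shared end, was at 15.4 to 36.2 CPM in tumor and had only 6 to 29 UMIs in each blood group. Gbp9 was the exception in this block. It was at 22.8 and 12.8 CPM in tumor control and 42.2 and 45.8 CPM in tumor IR, and still at 15.1, 13.3, 23.6 and 22.0 CPM in the 4 blood groups, so that its share of the family was 2.44% to 3.77% in tumor and 7.85% to 9.44% in blood. Of the annotated relatives outside the list, Gbp2b had 0 to 25 UMIs a group and Gbp10 had 0 to 7.

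**Figure D1:**
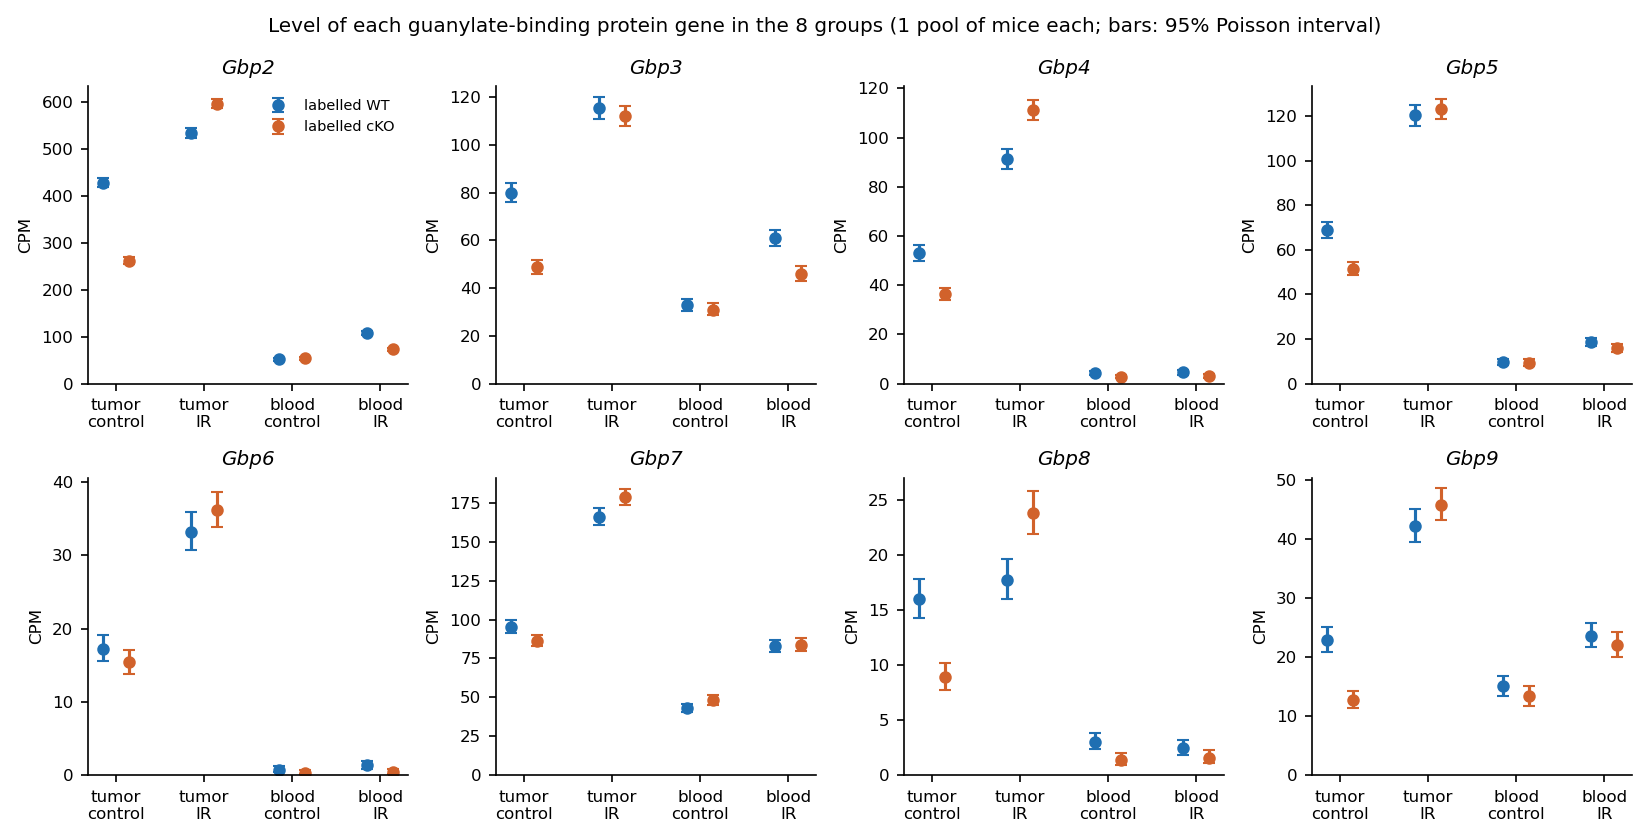
Each panel shows 1 member: CPM on a linear axis from 0 in the 8 groups, as points for cells labelled WT and cKO with 95% Poisson intervals (1 pool of mice each). The tumor points lie above the blood points for 6 members, Gbp7 by little (at least 86.4 against at most 83.6 CPM). Gbp3 and Gbp9 overlap, at 48.7 and 12.8 CPM in tumor control cKO against 61.1 and 23.6 CPM in blood IR WT.

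**Figure D2:**
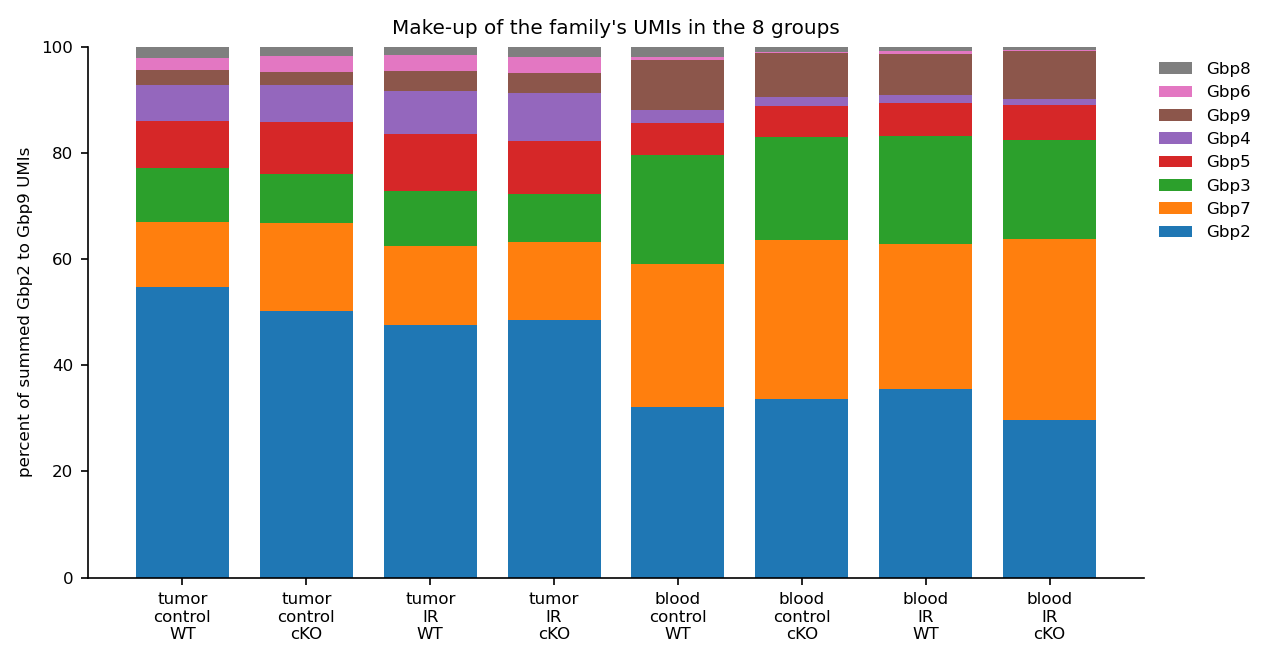
Stacked bars give each member's percent of the summed Gbp2 to Gbp9 UMIs in the 8 groups. Gbp2 takes 47.7% to 54.8% of the tumor bars and 29.7% to 35.5% of the blood bars, where Gbp7, Gbp3 and Gbp9 take larger parts.

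Comparing IR with control asks how these genes differ in the sorted cells after tumor irradiation. Each such comparison is between different libraries, so a difference by IR cannot be told apart from a difference between libraries. In WT tumor cells, all 8 members were higher after IR and none by the size limit of 2-fold (a log2 ratio of 1, for genes with 100 or more UMIs over both groups). That limit was passed upward by 2.6% and downward by 3.14% of the 10158 genes measured, and 35.1% of them were higher at any size. The summed family was higher by 0.52 on the log2 scale (0.49 to 0.55). Gbp6 (0.94, 0.76 to 1.14), Gbp9 (0.89, 0.72 to 1.05), Gbp5 (0.81, 0.71 to 0.90) and Gbp7 (0.80, 0.72 to 0.88) had the larger ratios, and Gbp2 (0.32, 0.28 to 0.36) and Gbp8 (0.15, -0.07 to 0.37) the smaller. The interval of Gbp8 takes in 0. The median member stood at 0.79 and the median gene at -0.13.

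In cKO tumor cells all 8 members were higher after IR by more than the limit, which 5.14% of 10680 genes passed upward and 17.2% downward. The sum was higher by 1.23 (1.2 to 1.26). Ratios ran from 1.05 (0.97 to 1.12) for Gbp7 to 1.84 (1.66 to 2.03) for Gbp9, with Gbp2 at 1.19 (1.14 to 1.23), Gbp4 at 1.61 (1.5 to 1.72) and Gbp8 at 1.41 (1.18 to 1.65). The median was 1.24 against -0.18 over all genes. Fibroblast-like cells moved with this comparison, from 11.7% of cKO cells in control to 1.25% after IR, and their summed markers stood at 705 and 124 CPM. Without the fibroblast, NK, T, B, mature dendritic and basophil clusters the sum was higher by 0.84, and Gbp9 (1.46), Gbp4 (1.23) and Gbp8 (1.01) alone were past the limit. The direction held with TMM scaling, which moved the median gene to 0.02 (WT) and 0.03 (cKO) and gave 0.67 and 1.44 for the sum. TMM also moved the share of upward genes among all genes past the limit from 45.3% to 65.3% in WT and from 23.1% to 37.6% in cKO.

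These tumor ratios rest on barcodes shared between the 2 tumor matrices. Without the shared barcodes only 100 WT and 56 cKO control cells and 88 WT and 107 cKO IR cells were left. The sum was then lower after IR in WT cells, at -0.14 on 60 against 89 UMIs, and higher by 0.63 in cKO cells on 90 against 37 UMIs. Each of these sets had fewer family UMIs than cells, against means of 5.79 to 8.05 family UMIs per cell in the whole tumor groups. The cells left thus differ from the whole groups in more than sharing, and the cause of the reversal in WT was not tested. The kept cells read in the other matrix gave 768 and 519 CPM (control WT and cKO) and 1123 and 1228 CPM (IR), which are close to their own values.

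In blood the sum was higher after tumor IR for both labels. In WT blood cells 6 of the 7 members measured were higher, against 57.2% of all genes, and Gbp8 was lower, against 42.8%. Gbp2 alone passed the limit at 1.06 (0.95 to 1.16). Upward passes came to 0.348% of 9776 genes and downward passes to 0.972%. The sum was higher by 0.92 (0.86 to 0.98), with Gbp5 at 0.97 (0.73 to 1.22), Gbp7 at 0.94 (0.83 to 1.06), Gbp3 at 0.90 (0.76 to 1.03) and Gbp9 at 0.65 (0.45 to 0.85). Gbp4 (0.11, -0.31 to 0.54) and Gbp8 (-0.29, -0.84 to 0.25) had intervals that take in 0. The median member was at 0.90 and the median gene at 0.03.

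In cKO blood cells all 6 measured members were higher, against 62.7% of genes, and none passed the limit, which 0.421% of 9503 genes passed upward and 0.979% downward. The sum was higher by 0.61 (0.55 to 0.68). Gbp7 (0.79, 0.68 to 0.91) and Gbp5 (0.77, 0.50 to 1.04) were the highest and Gbp2 reached 0.43 (0.32 to 0.55), while Gbp4 was at 0.05 (-0.52 to 0.62). Gbp2 thus had the highest ratio of the measured members in WT blood and the second lowest in cKO blood. The median member stood at 0.64 and the median gene at 0.07.

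Cells labelled cKO were then set against cells labelled WT within each library, the comparison the study made to look at myeloid Ythdf2. The deletion itself is not checked by these counts. In tumor control all 8 members were lower in cKO cells, against 37.6% of genes, and none by the limit, which 1.3% of 10668 genes passed downward and 3.53% upward. The sum was lower by 0.58 on the log2 scale (ratio -0.58, -0.62 to -0.55). Gbp9 (-0.84, -1.05 to -0.63), Gbp8 (-0.83, -1.09 to -0.58), Gbp3 (-0.72, -0.83 to -0.61) and Gbp2 (-0.71, -0.76 to -0.66) had the larger differences and Gbp7 the smallest (-0.14, -0.23 to -0.05). With TMM the sum was at -0.65, and the upward share of genes past the limit went from 73.1% to 60.5%. In this library 4.55% of WT cells and 11.7% of cKO cells were fibroblast-like, and these held 16.6% and 30.5% of the UMIs, and the summed NK cell markers stood at 417 and 153 CPM. Without the NK, T, B, fibroblast, mature dendritic and basophil clusters the ratio of the sum was -0.41.

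In tumor IR the 2 labels were close. Of the 8 members, 7 were higher and Gbp3 was lower in cKO cells (57.7% of genes were higher), none passed the limit (0.209% of 10028 genes upward, 1.05% downward), and the sum was higher by 0.13 (0.11 to 0.16). Gbp8 (0.42, 0.23 to 0.62) and Gbp4 (0.28, 0.20 to 0.37) differed most. Gbp3 (-0.04, -0.12 to 0.04) and Gbp5 (0.03, -0.04 to 0.11) had intervals that take in 0. The order of the labels in tumor control, WT above cKO, was thus not seen in the irradiated tumor.

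In blood control the sum did not differ beyond counting error, at 0.01 (-0.06 to 0.08). Of 6 measured members 2 were higher and 4 lower in cKO cells, against 52.0% and 48.0% of genes, with none past the limit (0.653% of 9642 genes upward, 1.57% downward). In blood IR the sum was at -0.30 (-0.35 to -0.24), with 5 of 6 members lower (37.5% of genes) and none past the limit (0.488% of 9637 genes downward, 0.145% upward). There Gbp4 was at -0.64 (-1.15 to -0.16), Gbp2 at -0.55 (-0.65 to -0.46) and Gbp3 at -0.41 (-0.54 to -0.29), while Gbp7 was at 0.02 (-0.08 to 0.11).

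**Figure D3:**
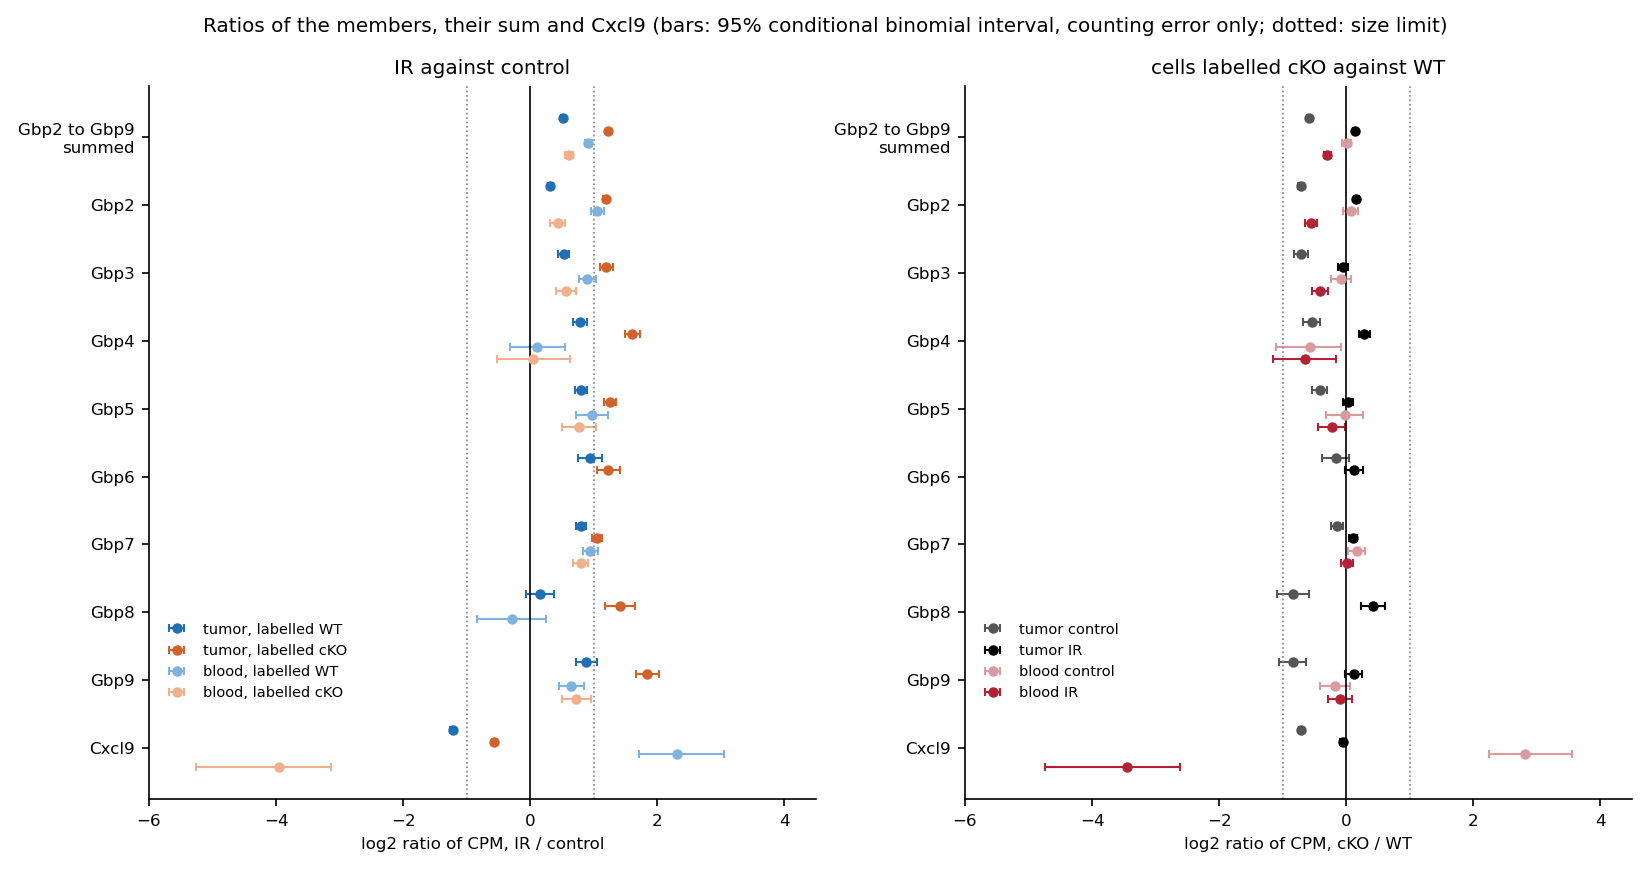
Points are log2 ratios of CPM for each member, the sum and Cxcl9, on the left IR against control and on the right cells labelled cKO against WT, with 95% conditional binomial intervals and dotted lines at the size limit; genes under 100 UMIs are left out. The members lie to the right of 0 after IR in tumor for both labels, Gbp2 at 0.32 (WT) and 1.19 (cKO), and to the left of 0 in cKO cells of tumor control.

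Cxcl9, set beside the family as a reference, had another pattern after IR. It was at 805 CPM (WT) and 492 CPM (cKO) in tumor control and at 346 and 333 CPM in tumor IR, so that it was lower after IR by 1.22 (ratio -1.22, -1.26 to -1.18) in WT and 0.56 (ratio -0.56, -0.60 to -0.52) in cKO cells where the family sum was higher. Between labels in tumor control its ratio of -0.71 (-0.74 to -0.68) equalled that of Gbp2. In blood it was near absent, at 24, 157, 127 and 9 UMIs in control WT, control cKO, IR WT and IR cKO, and 146 of the 157 UMIs came from 1 cell, so no ratio is read from it. At equal depth, family transcripts were found in 77.8% of Cxcl9+ and 39.0% of other WT tumor control cells, and in 79.0% against 59.8% of cKO tumor IR cells. In cluster 4, the tumor cluster led by H2-Eb1, H2-Ab1 and Cdh1, Cxcl9 was at 1440.0 CPM (WT) and 801 CPM (cKO) in control and at 458.5 and 440.2 CPM after IR, ratios of -1.65 (-1.72 to -1.58) and -0.86 (-0.93 to -0.80). Both transcripts were thus often in the same cells, while their ratios after IR had opposite signs in the whole tumor groups. Droplets without cells held Cxcl9 at 425 CPM in tumor control and 356 CPM in tumor IR. The tumor IR groups, at 346 and 333 CPM, were not above the free RNA of their library. Its part in the Cxcl9 values was not tested.

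The cells were grouped into 20 clusters without the members, the interferon lists, Ythdf2, Lyz1 and Lyz2, and 14 of them could be named from marker genes. Clusters 2, 4, 5, 6, 11 and 14, with 34.6% of the cells, could not, and they are called by number and leading genes. In tumor control, cluster 4 held 44.9% of the family UMIs in WT and 36.9% in cKO. After IR, cluster 2 (led by Cxcl3, Rsad2 and Nos2) held 40.7% and 42.8%. Its share of cells was 34.9% (WT) and 36.1% (cKO) after IR against 16.8% and 9.57% in control.

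The highest CPM of the family in any cluster was in cluster 11, a low-UMI cluster led by Ccl3 and G0s2 that was mostly found after IR (10.4% of WT cells and 6.42% of cKO cells, against 0.51% and 1.31% in control). It had 2093 CPM (1982 to 2208) in WT and 2693 CPM (2546 to 2847) in cKO tumor IR cells, of which Gbp2 made up 1334 and 1624 CPM. Cluster 5, led by Dmkn, Cxcl10 and Socs1, followed at 1331 (control WT), 1351 (control cKO), 1479.8 (IR WT) and 1603 CPM (IR cKO). At 1500 UMIs per cell a family transcript was seen in 71.0% (WT) and 69.1% (cKO) of cluster 5 cells after IR and in 62.8% and 65.8% of cluster 11 cells, so the order by share of cells was not that by CPM. Gbp5 was among the 10 leading genes of cluster 5 although the members were left out of the clustering. Macrophage-like cells (C1qa, Mrc1) were lower, at 507, 664, 502 and 682 CPM in the same order, and fibroblast-like cells were at 154 and 141 CPM in control and 624 CPM in IR WT. How much of the family lay in macrophage-like cells depended on the clustering. At the coarser resolution that class held 10743 of the 15868 family UMIs of tumor control WT, against 817 here.

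The IR ratio of the sum was unequal across tumor clusters. In WT cells it was 0.72 (0.65 to 0.79) in cluster 2 but -0.12 (-0.17 to -0.06) in cluster 4, 0.15 (0.09 to 0.22) in cluster 5 and -0.01 (-0.26 to 0.22) in macrophage-like cells, and it reached 2.01 (1.87 to 2.17) in fibroblast-like cells. In cKO cells it was 1.02 (0.93 to 1.12) in cluster 2, 0.74 (0.69 to 0.79) in cluster 4, 0.25 (0.16 to 0.33) in cluster 5 and 0.04 (-0.09 to 0.17) in macrophage-like cells. Cluster 4 thus differed in sign between the labels. With the macrophage-like class drawn anew, its ratio was 0.34 (WT) and 0.93 (cKO) at a coarser resolution, and 0.63 (cKO) at a finer one. Of the fibroblast-like WT cells, 24 of 80 after IR had fewer than 1500 UMIs, against 1 of 115 in control. The part of free RNA in the fibroblast-like ratio was not tested. The cluster shares of UMIs were then held at the mean of both groups. The ratio was 0.36 (0.33 to 0.39) in WT, against 0.52, and 0.88 (0.84 to 0.92) in cKO, against 1.23. Clusters with few cells in either group were pooled, and the make-up of this pool was not held. In WT the pool had 384 IR and 119 control cells, of which 323 and 13 were in cluster 11. In cKO it had 394 IR and 465 control cells. Of these, 242 and 28 were in cluster 11, and 47 and 251 were fibroblast-like. The shift in these cells thus remains in the fixed-share values. These fixed-share values depended on the clustering. At a finer resolution they were 0.0672 and 0.35, and with the left-out genes included in the clustering 0.0247 and 1.19.

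The difference between labels in tumor control was also unequal. It was -0.61 (-0.66 to -0.55) in cluster 4, -0.43 (-0.58 to -0.28) in conventional dendritic cell-like cells and -0.16 (-0.28 to -0.05) in cluster 2, and it was 0.02 (-0.07 to 0.11) in cluster 5 and 0.39 (0.27 to 0.51) in macrophage-like cells. Macrophage-like cells were 6.45% of WT cells and 15.5% of cKO cells there. The positive sign in macrophage-like cells did not hold at other clustering resolutions, where the class was drawn anew and the ratio was -0.42 (coarser) and -0.54 (finer). The fixed-share ratio was -0.24 (-0.28 to -0.21) against -0.58, and 0.0103 at the finer resolution. In tumor IR all 8 clusters with enough cells were higher in cKO, by 0.12 to 0.46, and the fixed-share ratio was 0.17 (0.15 to 0.20).

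**Figure D4:**
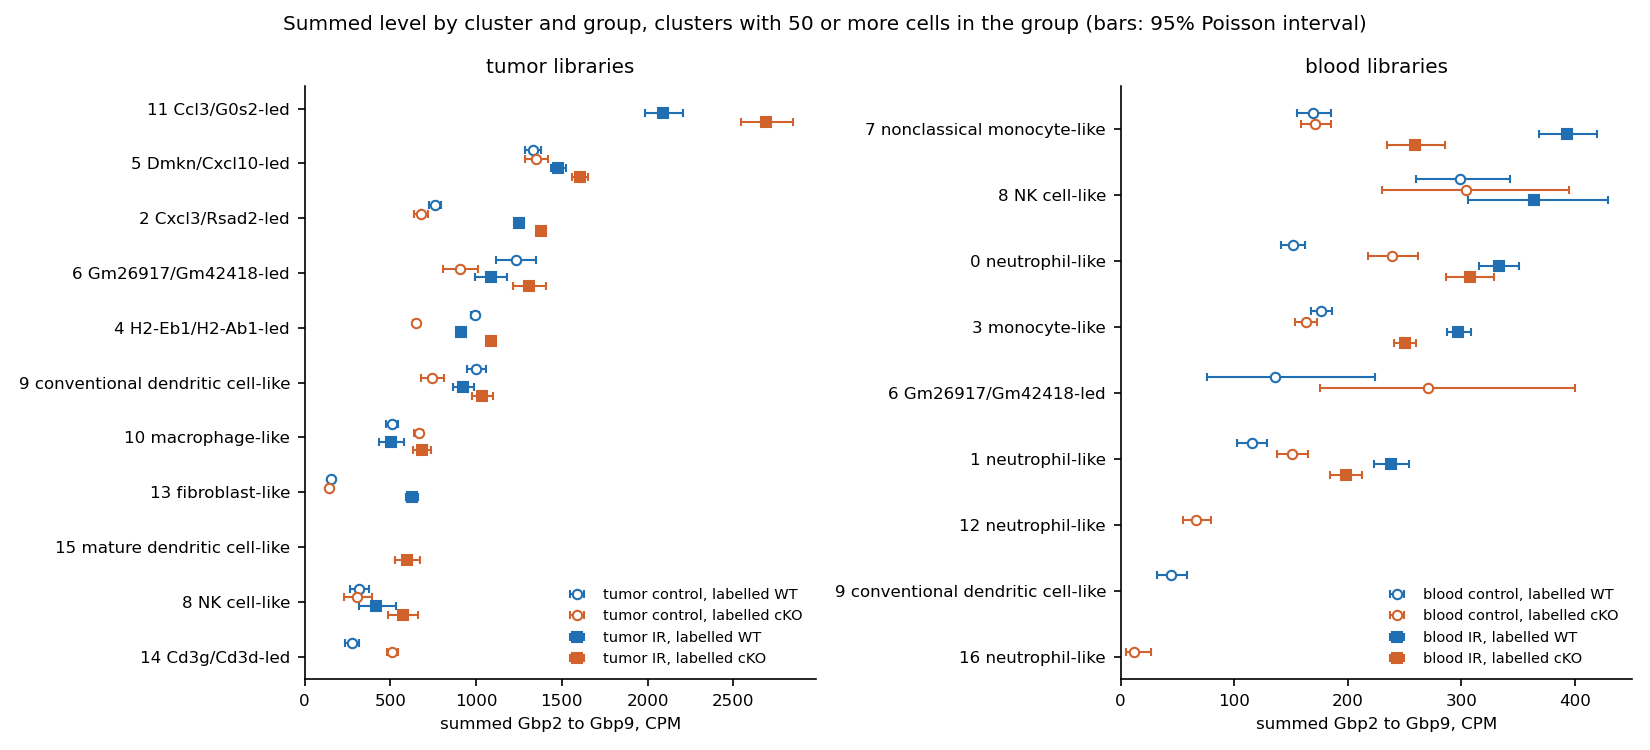
Summed CPM of the 8 members is shown by cluster for the tumor (left) and blood (right) groups, with 95% Poisson intervals, open symbols for control and filled for IR, for clusters with 50 or more cells in the group. Cluster 11 lies farthest right in tumor, at 2093 (WT) and 2693 CPM (cKO), and in blood the IR points of the neutrophil-like, monocyte-like and nonclassical monocyte-like clusters lie right of their controls.

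In blood the family was higher after IR in the neutrophil-like and in both monocyte-like classes. Neutrophil-like cells together were at 138 CPM (control WT), 145 CPM (control cKO), 279.7 CPM (IR WT) and 239 CPM (IR cKO). Cluster 0 was the larger of their clusters in both WT groups and cluster 1 in both cKO groups. Cluster 12, at 66.5 CPM in control cKO, was 10.9% of the cells of that group and 1.06% of IR cKO cells. The monocyte-like cluster 3 (F13a1, Chil3) was at 176, 163, 297 and 250.3 CPM in the same order, and nonclassical monocyte-like cells (Ace, Treml4) were at 169.7, 171, 393 and 259 CPM. The WT ratios were 1.02 (0.92 to 1.12) in neutrophil-like, 0.75 (0.66 to 0.85) in monocyte-like and 1.21 (1.05 to 1.37) in nonclassical monocyte-like cells, and the cKO ratios 0.72 (0.61 to 0.84), 0.62 (0.52 to 0.72) and 0.60 (0.42 to 0.78). Within clusters 0 and 1 the cKO ratios were 0.36 (0.20 to 0.53) and 0.40, below that of the whole neutrophil-like class. The fixed-share ratios were 0.93 (0.87 to 0.99) in WT and 0.55 (0.48 to 0.62) in cKO, near the whole-group ratios. The pooled small clusters, whose make-up was not held, had 140 IR and 671 control cells in cKO. They took in cluster 12 and the Ltf-led neutrophil-like cluster (62 control and 5 IR cells), so the fall of these cells remains in the cKO value.

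Members came from different blood cells. Monocyte-like cells held 57.0% to 81.2% of the Gbp3 UMIs of the 4 blood groups and neutrophil-like cells 3.81% to 5.38%. By contrast, neutrophil-like cells held 44.9% to 50.5% of Gbp2, 42.3% to 51.2% of Gbp7 and 33.6% to 48.6% of Gbp9. In the monocyte-like cells of control WT blood, Gbp3 was at 61.7 CPM, above Gbp7 at 46.2 and Gbp2 at 38.8. In neutrophil-like cells of that group Gbp3 was at 3.58 CPM, below Gbp2 at 67.0 and Gbp7 at 46.8. Gbp3 led the monocyte-like cells in 3 of the 4 blood groups, and in IR cKO it was at 71.0 CPM beside Gbp7 at 76.1.

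NK cell-like cells held much of the Gbp4 and Gbp8 UMIs of WT blood. In blood control WT, the 201 NK cell-like cells (Ncr1, Gzma, Prf1) held 45 of 89 Gbp4 UMIs (50.6%) and 41 of 65 Gbp8 UMIs (63.1%) but 20 of 1105 Gbp2 UMIs (1.81%). In blood IR WT, 106 such cells held 39.0% of Gbp4 and 41.8% of Gbp8. In the cKO groups 55 (control) and 44 (IR) such cells held 18.9% and 22.2% of Gbp4 and 29.6% and 16.7% of Gbp8. In the NK cell-like cells of blood control WT, Gbp4 was at 65.0 CPM (47.4 to 87.0) and Gbp8 at 59.2 CPM (42.5 to 80.3), above Gbp2 at 28.9 and Gbp3 at 20.2 and below Gbp7 at 91.0. The lower Gbp4 in cKO blood control cells, at -0.58 (-1.10 to -0.08), went together with this difference in the number of NK cell-like cells, and without the NK, T, B and other non-myeloid or minor clusters the ratio was 0.69, on 38 UMIs (cKO) against 25 (WT).

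The members also fell into different patterns over the 60 group-and-cluster sums with 50 or more cells. The pair Gbp4 and Gbp8 had the highest Pearson r of log2(CPM + 5) of the 28 pairs, at 0.88, followed by Gbp3 with Gbp5, Gbp4 with Gbp6 and Gbp4 with Gbp5 at 0.82. Gbp2 with Gbp8 had the lowest, at 0.26. The order of the pairs differed by tissue. Over the tumor sums alone, Gbp3 with Gbp9 (0.833), Gbp3 with Gbp5 (0.815) and Gbp5 with Gbp9 (0.781) lay above Gbp4 with Gbp8 (0.766). Gbp4 with Gbp6 was at 0.534 there. Some end stretches of Gbp4 also occur in Gbp6, whose values are uncertain. Over the blood sums Gbp4 with Gbp8 was the highest, at 0.979. Both genes lay under the added 5 CPM in every whole blood group. The NK cell-like cells of control WT blood held 50.6% of the Gbp4 and 63.1% of the Gbp8 UMIs. How far such cells set this value was not tested. Of 10008 other genes, those most like the summed family were Cd274 (0.871), Txnrd1 (0.869), Tap1 (0.848), Cxcl10 (0.839), Tgif1 (0.833), Spag9 (0.816), Plgrkt (0.813), Parp14 (0.810), Nfkbie (0.809) and Ifi47 (0.807). Cd274 encodes the checkpoint ligand PD-L1, Tap1 a peptide transporter for class I presentation, and Ifi47 an immunity-related GTPase. Cxcl9 was at 0.761 over all sums and 0.496 over the 36 tumor sums. Part of these values is the distance between tissues. Over the 36 tumor sums alone the values of the 10 genes ran from 0.480 (Plgrkt) to 0.893 (Ifi47), and over the 24 blood sums from 0.258 (Nfkbie) to 0.842 (Plgrkt), with Cd274 at 0.869 and 0.518. Sums of 1 group share a library and its depth, so these are descriptions.

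The other interferon genes give the setting. In WT tumor cells after IR, all 12 measured type I interferon targets were higher and past the limit, with a median of 2.73 (Ifit1 2.93, Isg15 2.40), and in cKO cells all 12 with a median of 3.65 (Ifit1 4.14, Isg15 3.14). All 9 immunity-related GTPases, smaller relatives that also act at pathogen vacuoles, were higher in both, 8 past the limit in WT (median 1.12) and 6 in cKO (median 1.72). The members, at medians of 0.79 and 1.24, lay below both lists. Of 8 interferon-gamma targets, 3 were higher and 1 lower by the limit in WT and 4 higher in cKO, with Cd274 at 1.01 and 1.72. The 13 interferon receptor and signal genes had medians of 0.35 and 0.67, with Irf1 at 0.35 (WT) and 0.24 (cKO). Ifng, the ligand, had 291 UMIs (46 cells) in tumor control WT and 36 (14 cells) in control cKO. After IR it had 190 (17 cells) in WT and 150 (33 cells) in cKO.

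Inflammasome partners differed less. All 8 were higher after IR in WT tumor cells with 1 past the limit (Il18, 1.44) and a median of 0.43, and all 8 in cKO cells with 3 past it and a median of 0.56. Casp1 was at 0.76 and 1.29, Casp4 at 0.78 and 1.16, and Aim2, a cytosolic DNA sensor, at 0.28 and 0.53. In blood after IR the members had a higher median (0.90 in WT, 0.64 in cKO) than the type I targets (0.57 and 0.50) and the 4 measured immunity-related GTPases (0.46 and 0.45). Between labels in tumor control all 12 type I targets were lower in cKO cells, 6 by the limit (median -0.99), all 13 signal genes were lower (median -0.50) and 7 of 8 interferon-gamma targets were lower (median -0.51), beside the median of -0.63 of the members. Of 8 immunity-related GTPases 3 were higher and 5 lower there (median -0.49), and of 8 inflammasome partners 2 were higher and 6 lower (median -0.14).

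**Figure D5:**
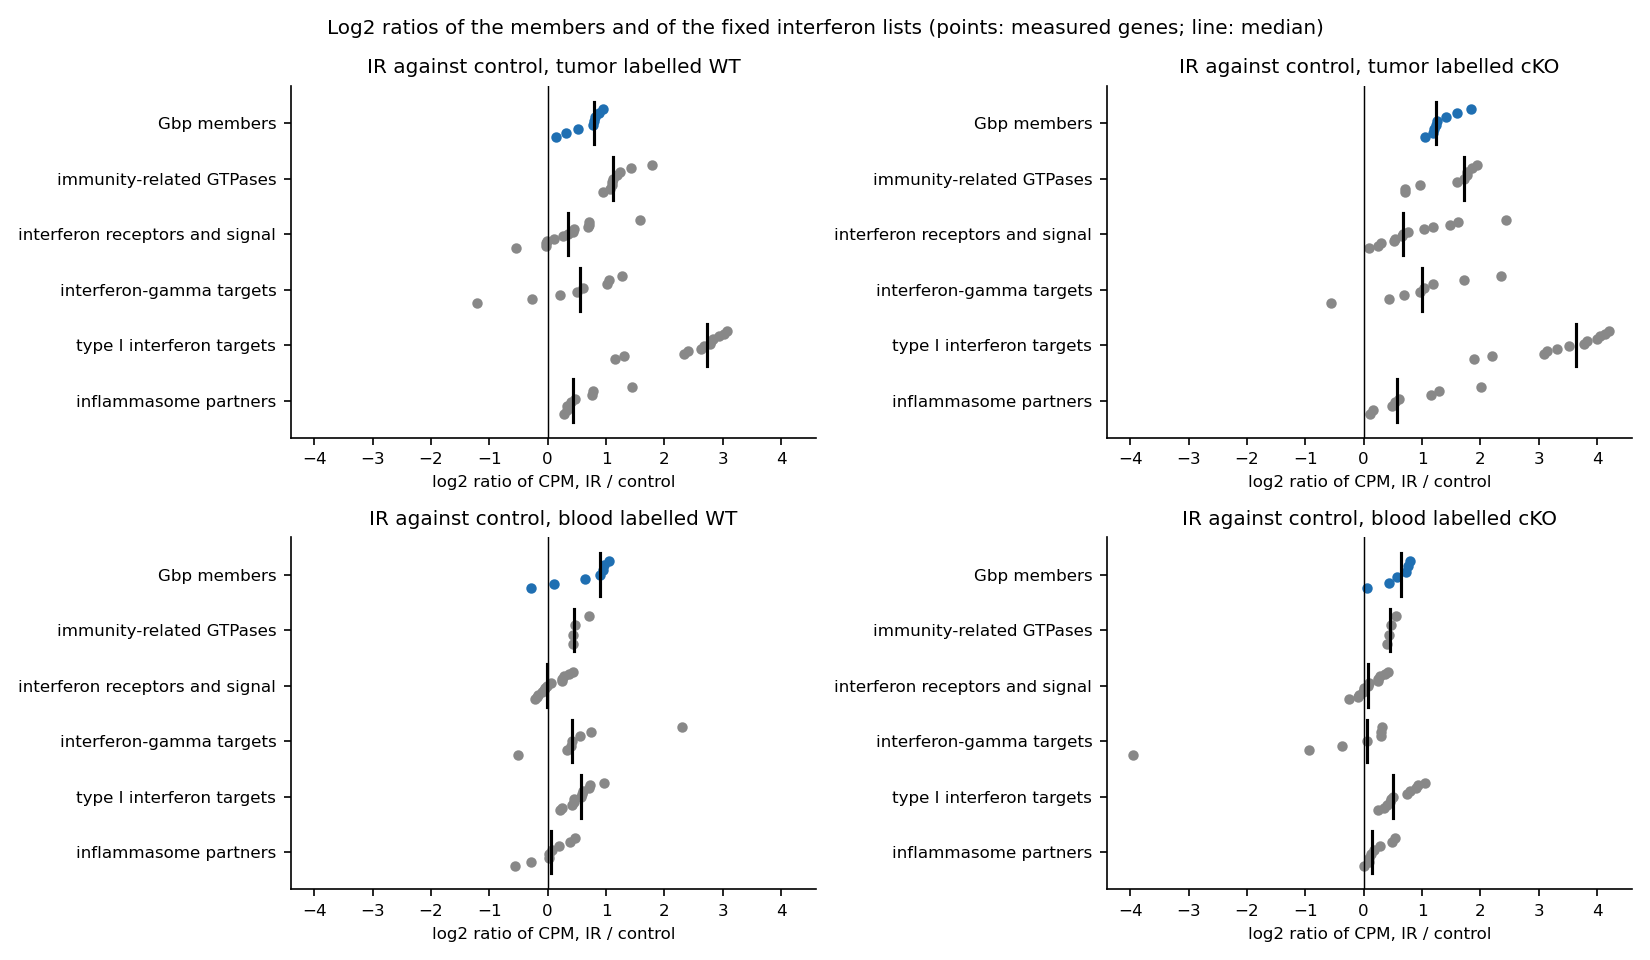
Points are the log2 ratios of single measured genes in each fixed list, with the list's median as a line, one panel per comparison. In tumor after IR the type I interferon targets lie farthest right (medians 2.73 in WT and 3.65 in cKO), with the members between them and 0, and in blood the members lie at 0.90 (WT) and 0.64 (cKO).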

How the data were processed

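Single-cell 3′ RNA-seq was made with the Chromium Next GEM v3.1 kit from 4 libraries of sorted cells, each with 2 TotalSeq-B hashtags. The authors deposited raw UMI counts per gene and barcode (32285 genes, all barcodes), made with Cell Ranger on mm10. The submitters' notes give Cell Ranger 6.0.1 and Seurat 4.0.6, while the deposited count files carry a Cell Ranger 4 header. Authors' cell calls were not used here.

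Cells were called per library by an order-of-magnitude threshold and a test against free RNA (barcode ranks 45000 to 90000), kept with 500 or more UMIs, 200 or more genes and at most 25% mitochondrial UMIs, labelled by hashtag, and cleared of doublets with Scrublet (scanpy 1.11.5, the highest 6% of scores). They were clustered in Seurat 5.3.0 (2000 variable genes without the members, interferon lists, Ythdf2, Lyz1 and Lyz2, 40 exact components rounded to 3 decimals, resolution 0.8), and clusters were named from fixed marker lists where 3 or more markers were raised. The 8 GEO samples are the gene and hashtag parts of the 4 libraries, and groups are library and label.

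Counts were summed over the cells of a group or a cluster with 50 or more cells. CPM is given with exact Poisson intervals, shares with Clopper-Pearson intervals, and log2 ratios, with 1 UMI added to each sum scaled to depth, with exact conditional binomial intervals, all at 95% and covering counting error only. With 1 sample a group there is no test. A gene was measured with 100 or more UMIs over both groups and past the limit at 2-fold. TMM used edgeR 4.0.16 (R 4.3.3), and the ratio steps were tested on simulated data. The genes named are the 8 members, Cxcl9, Gbp2b, Gbp10, Gbp11 (not among the features used), the fixed interferon lists and the 10 genes most like the sum. The members and lists were chosen with earlier results of these data known. Sequences are from RefSeq (GRCm38.p6) and positions from GENCODE vM21 (GRCm38), since the annotation release behind the files was not used here. Of the genes in these lists, 1 is not reported here by name.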

Additional observations from a re-analysis of the deposited data

Results flagged for a closer look

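Several differences between labels had opposite signs in 2 settings. Each group is 1 pool of mice, so none of these differences was tested. For the summed family the log2 ratio of cKO to WT was -0.58 in tumor control and 0.13 in tumor IR, and -0.30 in blood IR. For Gbp2 it was -0.71, 0.16 and -0.55 in the same order, and for Gbp4 -0.54, 0.28 and -0.64. Gbp8 stood at -0.83 in tumor control and 0.42 in tumor IR. Gbp7 stood at -0.14 in tumor control, 0.10 in tumor IR and 0.17 in blood control.

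Barcodes outside the groups also carried family transcripts. In the tumor control matrix, 7124 called barcodes with fewer than 20 hashtag UMIs had 1198 CPM of the summed family, and in the tumor IR matrix 4796 such barcodes had 623 CPM. Among all barcodes with 500 or more UMIs and few hashtag UMIs, 7325 of 7327 and 4955 of 4958 had 20 or more hashtag UMIs in the other tumor matrix. The CPM of the unlabelled barcodes of each matrix thus lay near that of the kept cells of the other library, which was 1121 to 1228 CPM in tumor IR and 523 to 783 CPM in tumor control.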

How the results depend on the processing

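No paired analysis was possible because each group is 1 sample, and for the same reason no replicate could be left out. Of 108 alternative values of the summed ratios, 86 stayed within the interval of the main value, 21 moved beyond it and 1 reversed. Over all alternatives the ratio of IR to control ranged from -0.14 to 0.67 in tumor WT, 0.63 to 1.44 in tumor cKO, 0.89 to 0.98 in blood WT and 0.52 to 0.64 in blood cKO. The ratio of cKO to WT ranged from -0.65 to -0.41 in tumor control, 0.11 to 0.24 in tumor IR, -0.03 to 0.13 in blood control and -0.34 to -0.28 in blood IR.

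Without barcodes present in both tumor matrices, which left 56 to 107 cells a tumor group, the sum reversed to -0.14 for IR in WT and stood at 0.63 for IR in cKO, -0.53 for cKO against WT in control and 0.24 in IR. In the same setting some member ratios changed sign, each on fewer UMIs over both groups than the minimum for a measured gene. In WT the IR ratio was -0.37 for Gbp3 (5 IR against 9 control UMIs) and -0.52 for Gbp4 (7 against 14). It was -1.05 for Gbp6 (1 against 4), -0.72 for Gbp7 (6 against 14) and -1.52 for Gbp9 (1 against 6). In cKO the IR ratio of Gbp9 was -0.43 (2 against 2). The ratio of cKO to WT was 0.83 for Gbp5 in control (7 cKO against 6 WT UMIs) and -0.23 for Gbp2 in IR (31 against 29). No direction is read from these member counts. The setting loses most cells, those left had fewer family UMIs each than the whole groups, and the cause was not tested. With a hashtag margin of 4 times for either label, which left 1001 of 2526 tumor control WT cells, the IR ratio in tumor WT was 0.64 and the label ratio in tumor control -0.44. Without doublet removal the values were 0.56 and -0.52, with 1.19 for IR in tumor cKO. TMM scaling gave 0.67 (IR, tumor WT), 1.44 (IR, tumor cKO), 0.55 (IR, blood cKO) and -0.65 (label, tumor control). Equal weight for every cell gave 0.45, 1.02, 0.52 and -0.45 in the same order and 0.13 for the labels in blood control. Another alternative, chosen after seeing the data, left out the NK, T, B, fibroblast, mature dendritic and basophil clusters. The values were then 0.32 (IR, tumor WT), 0.84 (IR, tumor cKO), 0.98 (IR, blood WT) and -0.41 (label, tumor control). Gbp4 between labels in blood control reversed to 0.69, on 38 cKO against 25 WT UMIs, also fewer than the minimum for a measured gene. The cause of these shifts was not tested.

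At a size limit of 1.5-fold in either direction, 5 of 8 members passed in tumor WT after IR (1944 of 10158 genes), 5 of 7 in blood WT (458 of 9776), 3 of 6 in blood cKO (511 of 9503), 4 of 8 between labels in tumor control (1923 of 10668) and 1 of 6 in blood IR (249 of 9637). With a minimum of 20 UMIs, 2 of 8 members passed between labels in blood control (517 of 11987 genes) and 1 of 8 in blood IR (255 of 11941). Clusters carried the least stable values. At resolution 0.4 the macrophage-like class gave IR ratios of 0.34 (WT) and 0.93 (cKO) and label ratios of 0.17 in tumor IR and -0.42 in tumor control, a reversal. At resolution 1.2 it gave 0.63 (IR, cKO), 0.17 (label, tumor IR) and -0.54 (label, tumor control), again a reversal. In the fixed-share values the make-up of the pooled small clusters was not held. With cluster shares fixed at resolution 1.2, IR gave 0.0672 and 0.35 in tumor and 1.01 and 0.66 in blood (WT and cKO). The labels gave 0.0103 in tumor control, a reversal. With clusters from all genes, IR gave 0.0247 and 1.19 in tumor and 0.80 and 0.44 in blood. The cause was not tested. The monocyte-like ratios moved by less than their intervals at resolution 1.2 and with all genes, and resolution 0.4 gave no value for them. Depth limits Gbp6 and Gbp8 most, which had under 100 UMIs in most blood comparisons.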
